A study of Mus musculus with 7 samples.

Results

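The genes described here encode the proteins of the mitochondrial ribosome, and they were followed in naive CD4 T cells of mice with an overactive Pik3cd allele. They were chosen by name alone, as the genes of the deposited table whose symbol starts with Mrpl or Mrps and a number, and the only name left out was the pseudogene Mrps36-ps3, which had 0 counts. That gave 77 of the 34745 genes of the table, 48 named for the large subunit and 29 for the small subunit. Naive CD4 T cells are helper-lineage lymphocytes before their first contact with antigen, and here their RNA was sequenced from spleens of 8-week-old male C57BL/6 mice. Of the mice 4 were heterozygous for the PIK3CD gain-of-function allele (GOF), and 3 were their wild-type (WT) littermate controls. Pik3cd encodes the delta catalytic subunit of phosphoinositide 3-kinase, a lipid kinase of leukocytes that signals below the antigen receptor. The labels do not name the amino-acid change of the allele. Each library is 1 mouse, and cells were isolated by negative selection and lysed without culture or treatment.

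The mitochondrial ribosome sits in the mitochondrial matrix and makes the few proteins that the mitochondrial genome encodes, all of them core subunits of the respiratory chain and the ATP synthase. Its rRNAs come from the mitochondrial genome, while every one of its proteins is encoded in the nucleus, made in the cytosol and imported. Some of these proteins have relatives in the bacterial ribosome and others are specific to mitochondria. Resting T cells carry few mitochondria, and T cells that are activated enlarge this machinery together with the respiratory chain.

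The GOF libraries held 14945520, 15296355, 16293539 and 15293096 counts and the WT libraries 14497957, 15015783 and 14643134. Pik3cd transcript was lower in GOF cells, with 543, 762, 538 and 765 CPM in the GOF libraries, against 938, 1511 and 959 CPM in the WT libraries (log2 fold change -0.80 ± 0.20 (SE), edgeR adjusted p = 0.0154). CPM here are counts per 1000000 counts, with TMM-scaled library totals. The Pik3cd call was lost without GOF replicates 1 and 3 (-0.58 on the log2 scale, edgeR adjusted p = 0.106) and with limma after quantile normalization (adjusted p = 0.0571). A transcript level does not check an activating allele. The 10 CD4 T cell markers summed to 8965 to 9961 CPM in GOF cells and 8058 to 8863 CPM in WT cells (5 called higher, 3 lower). This sum was higher in every GOF library than in every WT library. Markers of other cell types were scarcer by far, and their sums were higher in every GOF library than in every WT library except for red blood cells and platelets. The neutrophil markers summed to 63.1 to 210.2 CPM in GOF cells and 0.551 to 8.41 CPM in WT cells, with 9 of 10 called higher, none lower and Camp at 0 in WT. The myeloid markers summed to 174 to 511 CPM in GOF cells and 49.4 to 91.2 CPM in WT cells (11 of 13 rows called higher, none lower). The B cell markers summed to 106 to 201 CPM in GOF cells and 31.0 to 101 CPM in WT cells (6 of 10 called higher, none lower). For NK and CD8 T cells it was 116 to 161 CPM in GOF cells and 59.5 to 80.9 CPM in WT cells (7 of 9 called higher, none lower). For red blood cells and platelets it was 27.5 to 91.2 CPM in GOF cells and 18.1 to 32.1 CPM in WT cells (6 of 10 tested called higher, none lower), with Gp9 and Car1 at 0 in WT. GOF replicates 1 and 3 had the highest sums for each of these other cell types. The part of such cells in the values below was not tested. In such bulk samples a smaller share of a cell type and less RNA per cell cannot be told apart.

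All 77 genes were expressed well enough to be tested, with 25 to 3425 counts in any library. Their mean level over the 7 libraries ran between 1.49 and 62.6 FPKM, the deposited level per transcript length and library total, with a median of 9.74 FPKM. The gene with the highest level was Mrps16, a protein needed to assemble the small subunit, at 62.6 FPKM. It was followed by Mrpl24 (52.0 FPKM), Mrpl42 (47.5 FPKM), Mrpl4 (38.4 FPKM) and Mrpl32 (36.8 FPKM), all of the large subunit. This order rests on the lengths the authors used. For 31 of the 77 genes that length was more than 1.5-fold off the merged exons of the GENCODE M21 annotation. Each gene named in this order is among them, such as Mrps16 (566 against 2875 bases) and Mrpl24 (3778 against 2255 bases). In CPM, which use no length, Mrps16 averaged 36.1 in GOF and 34.5 in WT cells, beside a median of 29.8 over the 77 genes.

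Summed over the 77 genes, transcript of the mitochondrial ribosome overlapped between the genotypes. The sum was 2613, 2389, 2759 and 2722 CPM in the GOF libraries, against 2816, 2166 and 2449 CPM in the WT libraries. On this scale the highest and the lowest of the 7 values were both WT, so the GOF values lay within the WT range. The means were 2621 ± 167 CPM in GOF cells and 2477 ± 326 CPM in WT cells (SD, n = 4 and 3). As unscaled shares of the library total, GOF replicates 3 and 4 (0.2815% and 0.2768%) lay above the highest WT library (0.2703%). The groups overlapped on both scales, but the GOF values lay within the WT range only with TMM-scaled totals. Other machines of protein synthesis and respiration stood at quite different heights. Cytosolic ribosomal proteins summed to 50510 ± 5197 CPM in GOF cells and 57690 ± 8011 CPM in WT cells, and the nuclear subunits of oxidative phosphorylation to 6667 ± 429 CPM in GOF cells and 6601 ± 799 CPM in WT cells. The 13 genes of the mitochondrial genome summed to 62200 ± 4174 CPM in GOF cells and 49330 ± 4328 CPM in WT cells. In that group alone among these 4 sums did no GOF library overlap a WT library, with 56480 to 65330 CPM in GOF and 44750 to 53350 CPM in WT.

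**Figure D1:**
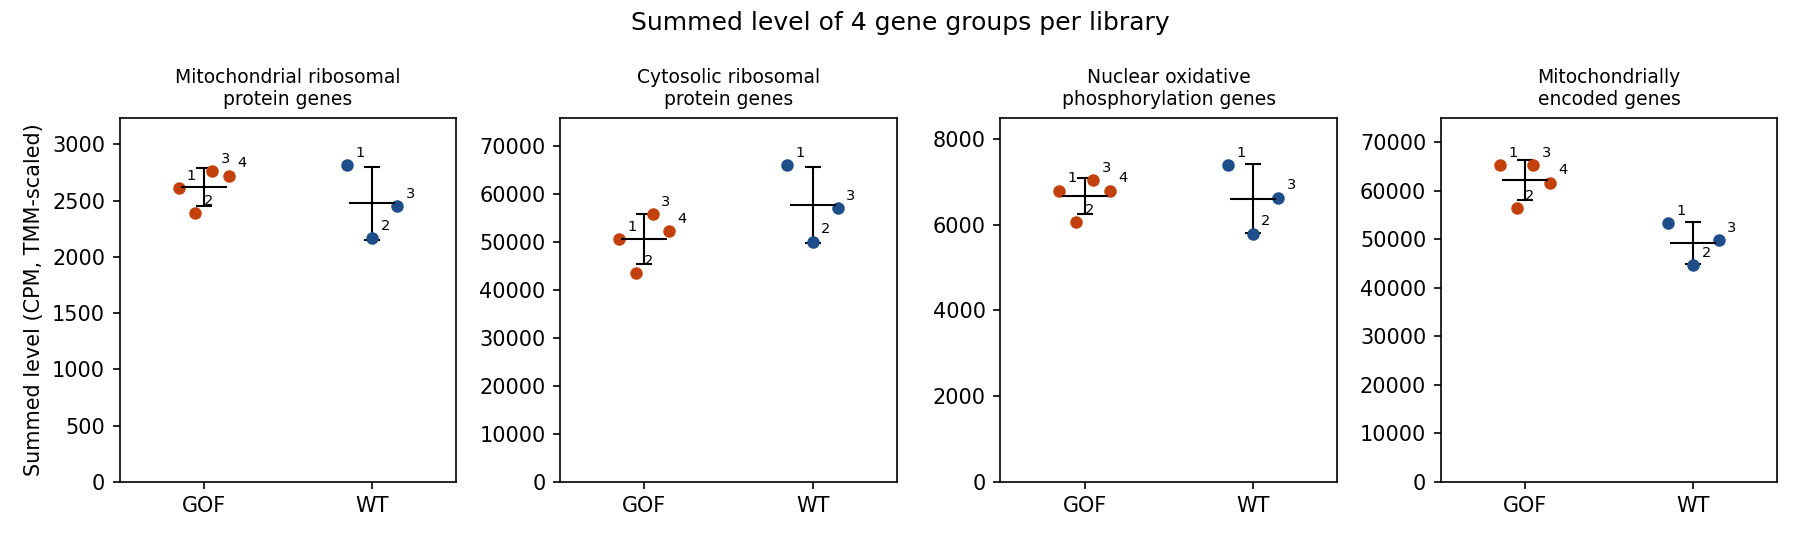
Summed CPM of the 77 mitochondrial ribosomal protein genes and of 3 related gene groups in each library, GOF left of WT, with points for mice and bars for the mean and SD. The mitochondrial ribosome overlapped between genotypes (2389 to 2759 CPM in GOF, 2166 to 2816 CPM in WT), while the mitochondrially encoded genes did not.

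Gene by gene, the differences between GOF and WT cells were small, and how far they leaned higher moved with the WT libraries included. Of the 77 genes 9 were called higher in GOF cells and none lower, at an edgeR quasi-likelihood adjusted p under 0.05 over all 12668 genes tested. That is 11.7% of them, against 16.8% of all genes tested called higher (2130 genes) and 14.5% called lower (1838 genes). The share called higher was below the background in this test and the share called lower was 0. With limma on the deposited FPKM, which carries no TMM scaling, the calls over all genes split into 2606 higher (20.6%) and 1393 lower, and 17 of the 77 (22.1%) were called higher, just above the background. At an unadjusted p under 0.05, 17 of the 77 were higher and 1 lower. The count over all genes at that threshold was not taken, so these counts have no background. DESeq2 called 11 of the 77 higher (14.3%) and none lower, beside 2408 higher and 2039 lower of all 12668 genes. The median log2 fold change of the 77 was 0.07, beside 0.01 over all genes tested, and 50 of them (64.9%) had a value above 0, beside 50.5% of all genes. Without WT replicate 2 the median of the 77 was -0.02, 36 of them were above 0 and 3 were called higher. Without WT replicate 1 it was 0.17, 62 were above 0 and 14 were called higher. Without any other single library the median lay between 0.05 and 0.12. With all libraries the log2 fold changes of the 77 ran from -0.59 to 0.82. Their median size without sign was 0.19, against 0.33 over all genes tested. Of the 68 genes without a call, 66 had a 95% interval within 1 log2 unit of no difference and 37 within 0.5. A difference of 2-fold was therefore outside the interval for most of them, and smaller differences may have gone undetected with 4 and 3 mice.

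**Figure D2:**
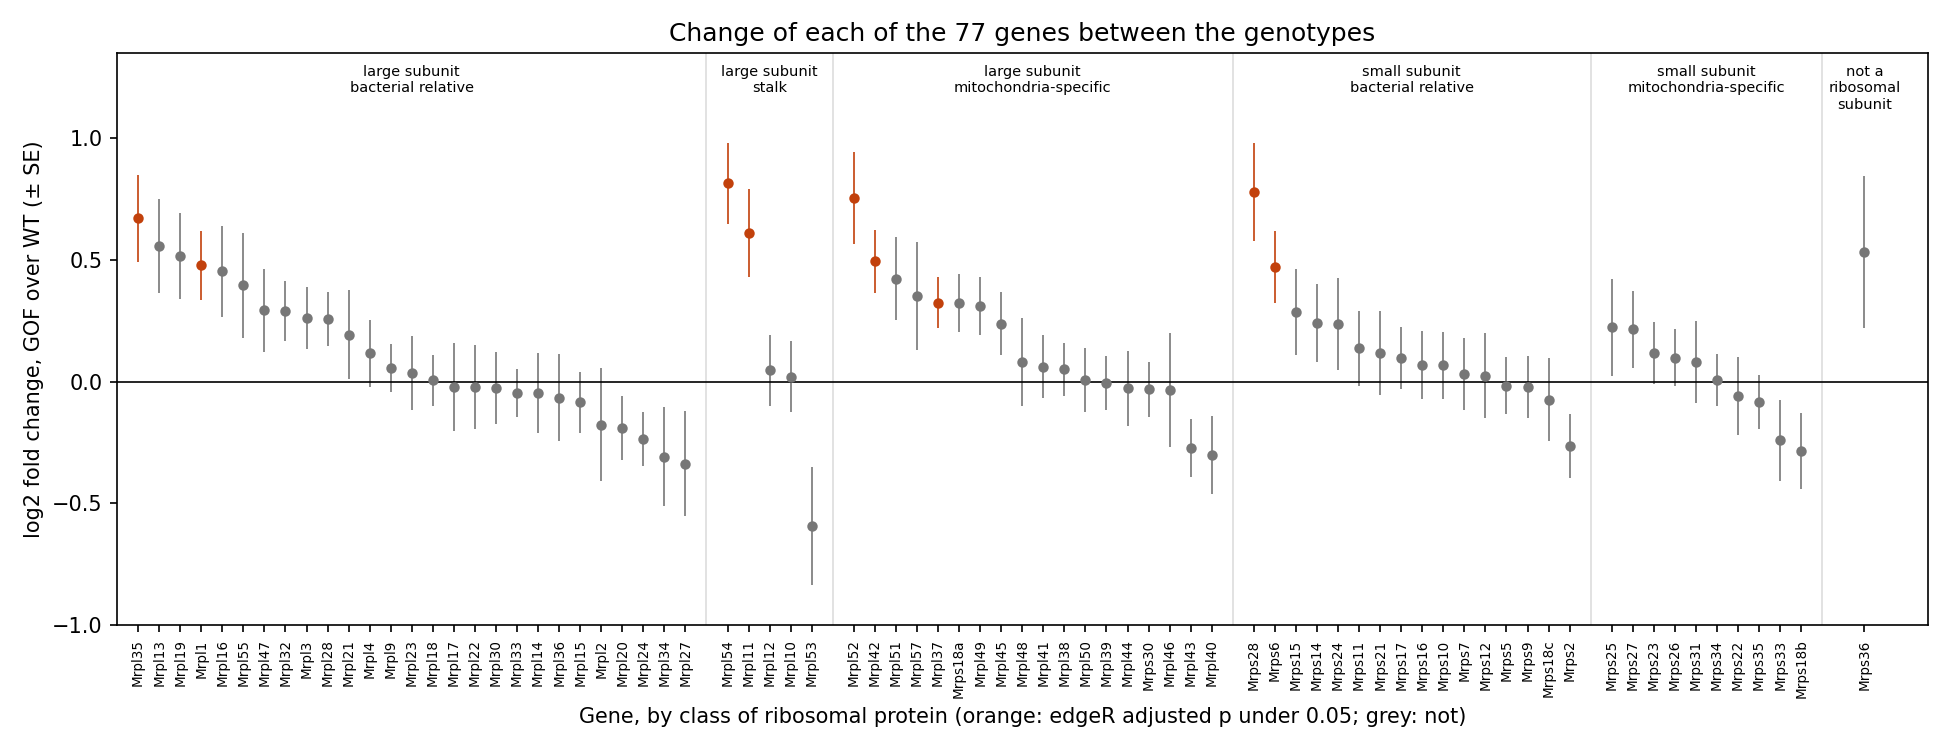
Log2 fold change of each of the 77 genes, GOF over WT, with its SE, ordered by size within each class of ribosomal protein. The 9 genes with an edgeR adjusted p under 0.05 are orange and all lie above 0, and the values run from -0.59 (Mrpl53) to 0.82 (Mrpl54).

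**Figure D3:**
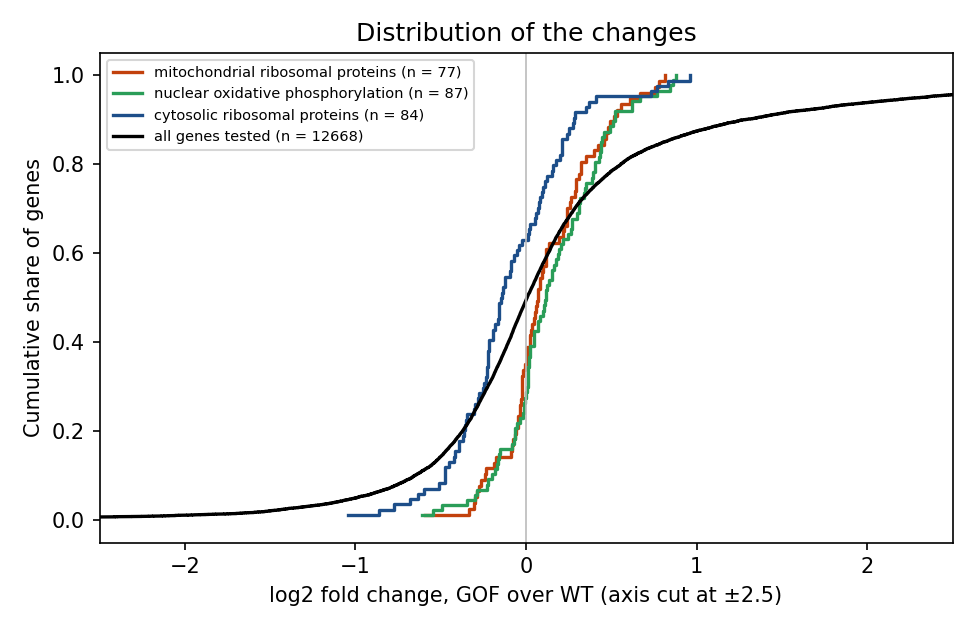
Cumulative share of genes, on a scale of 0 to 1, below each log2 fold change (GOF over WT) for the 77 mitochondrial ribosomal protein genes, for 2 related gene groups and for all genes tested. The curve of the 77 genes is steeper than that of all genes and has its median at 0.07, near the 0.01 of all genes tested.

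The large subunit carries a flexible stalk where the GTPase translation factors dock, and this small group held both ends of the range. Mrpl54, a protein of the stalk base at chromosome 10, 81264713 to 81266934 on mm10, had 40.7, 33.5, 45.0 and 31.2 CPM in the GOF libraries, against 22.7, 17.7 and 23.7 CPM in the WT libraries. No GOF library overlapped a WT library. The means were 37.6 ± 6.38 CPM in GOF cells and 21.4 ± 3.23 CPM in WT cells (SD, n = 4 and 3), with the largest rise of the 77 genes (log2 fold change 0.82 ± 0.17 (SE), edgeR adjusted p = 0.00598). Mrpl11, which binds the rRNA where the factors are activated (chromosome 19, 4962306 to 4966995), had 34.2, 25.3, 31.4 and 31.6 CPM in the GOF libraries, against 25.6, 18.7 and 15.9 CPM in the WT libraries. It rose as well (log2 fold change 0.61 ± 0.18 (SE), edgeR adjusted p = 0.0314), although GOF replicate 2 lay just under WT replicate 1. Mrpl53, a further protein of this region, had 2.99, 4.21, 3.43 and 4.82 CPM in the GOF libraries, against 5.24, 5.44 and 6.82 CPM in the WT libraries. Every GOF library was below every WT library, the single case among the 77, but at these low levels the difference did not pass the test (log2 fold change -0.59 ± 0.24 (SE), edgeR adjusted p = 0.0927). The Mrpl53 locus overlaps those of Ccdc142 and Ccdc142os, 1 of them on the same strand, so its counts in the shared stretch are uncertain. Mrpl10, the anchor of the stalk, and Mrpl12, which forms its flexible arms and recruits the factors, had log2 fold changes of 0.02 (adjusted p = 0.930) and 0.05 (adjusted p = 0.840). Their sign turned to -0.10 and -0.11 without WT replicate 2. Without GOF replicate 1, 3 or 4, WT replicate 2 or WT replicate 3 Mrpl11 lost its call (adjusted p = 0.0670 to 0.104), and Mrpl54 kept it without any single library.

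Of the 27 large-subunit proteins outside the stalk that have a bacterial relative, 2 rose (7.41%) and none fell, with a median log2 fold change of 0.04. Mrpl35 (chromosome 6, 71812997 to 71826969) had 23.8, 22.2, 25.5 and 24.6 CPM in the GOF libraries, against 19.8, 12.1 and 13.4 CPM in the WT libraries (log2 fold change 0.67 ± 0.18 (SE), edgeR adjusted p = 0.0205). The groups did not overlap, and WT replicate 1 stood nearer to the GOF libraries than to the other WT libraries. Mrpl1, which builds the mobile stalk on the side where tRNAs leave (chromosome 5, 96209493 to 96266727), had 13.5, 13.5, 14.8 and 15.1 CPM in the GOF libraries, against 9.41, 9.78 and 11.4 CPM in the WT libraries (log2 fold change 0.48 ± 0.14 (SE), edgeR adjusted p = 0.0312). The groups were tight and did not overlap. Mrpl35 lost its call without GOF replicate 3 or 4 or WT replicate 2 or 3 (adjusted p = 0.0513 to 0.0751), and Mrpl1 without GOF replicate 1, 3 or 4 or WT replicate 1 or 2 (adjusted p = 0.0603 to 0.0832). Just outside the threshold were Mrpl19 (log2 fold change 0.52, edgeR adjusted p = 0.0534) and Mrpl13 (0.56, edgeR adjusted p = 0.0562), proteins of the same class. The genes of this class with the highest FPKM, Mrpl24, Mrpl4 and Mrpl32, did not pass either. Mrpl24, a protein of the tunnel exit, had 173, 189.9, 164 and 206 CPM in the GOF libraries, against 246, 199.8 and 201 CPM in the WT libraries, with a difference of -0.23 on the log2 scale (edgeR adjusted p = 0.142). Mrpl4, which lines the exit tunnel, gave 0.12 on the log2 scale (edgeR adjusted p = 0.558). Mrpl32, whose cleavage by a mitochondrial protease precedes its assembly, had 0.29 (edgeR adjusted p = 0.106).

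The 18 large-subunit proteins classed as specific to mitochondria gave 3 rises (16.7%) and no fall, with a median of 0.07. Mrpl52 (chromosome 14, 54426909 to 54429756) had 48.5, 41.0, 52.5 and 55.1 CPM in the GOF libraries, against 38.4, 22.4 and 26.9 CPM in the WT libraries. The means were 49.3 ± 6.15 CPM in GOF cells and 29.2 ± 8.23 CPM in WT cells (SD, n = 4 and 3), the second largest difference of the large subunit (log2 fold change 0.75 ± 0.19 (SE), edgeR adjusted p = 0.0149). Mrpl42 (chromosome 10, 95480806 to 95501927) had 36.6, 33.5, 37.0 and 36.7 CPM in the GOF libraries, against 28.3, 20.8 and 27.5 CPM in the WT libraries (log2 fold change 0.49 ± 0.13 (SE), edgeR adjusted p = 0.0188). The GOF libraries lay within a narrow band except for replicate 2, and all were above the WT libraries. Mrpl37, a protein related to Mrps30 (chromosome 4, 107055874 to 107066868), had 58.6, 64.1, 60.6 and 71.6 CPM in the GOF libraries, against 55.0, 48.3 and 49.6 CPM in the WT libraries (log2 fold change 0.32 ± 0.10 (SE), edgeR adjusted p = 0.0432). This was the smallest of the 9 called differences, with WT replicate 1 close under the lowest GOF library. Mrpl52 lost its call without WT replicate 3 (adjusted p = 0.0591) and Mrpl42 without GOF replicate 4 (adjusted p = 0.0527). Mrpl37 kept its call only where WT replicate 1 was the library left out (adjusted p = 0.0551 to 0.129 without each other library).

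In the small subunit 2 of the 16 proteins with a bacterial relative (12.5%) rose, none fell, and the median was 0.08. Mrps28 (chromosome 3, 8802146 to 8923918) had 11.9, 10.3, 15.3 and 13.8 CPM in the GOF libraries, against 6.68, 6.68 and 9.05 CPM in the WT libraries. The means were 12.8 ± 2.19 CPM in GOF cells and 7.47 ± 1.37 CPM in WT cells (SD, n = 4 and 3), without overlap (log2 fold change 0.78 ± 0.20 (SE), edgeR adjusted p = 0.0170). Mrps6, the relative of bacterial protein S6 (chromosome 16, 92058270 to 92112227), had 15.4, 18.4, 14.4 and 19.0 CPM in the GOF libraries, against 12.4, 12.5 and 11.6 CPM in the WT libraries (log2 fold change 0.47 ± 0.15 (SE), edgeR adjusted p = 0.0395). The WT libraries were nearly equal and all lay below the GOF libraries. The Mrps6 locus overlaps that of Slc5a3 on the same strand, which gave -0.28 on the log2 scale (edgeR adjusted p = 0.504), so counts in the shared stretch are uncertain. Mrps28 lost its call without WT replicate 2 (adjusted p = 0.0504), and Mrps6 lost it when any library but GOF replicate 3 was left out (adjusted p = 0.0588 to 0.112). Mrps16, the most abundant transcript of the 77 per length, had 36.6, 30.2, 41.2 and 36.4 CPM in the GOF libraries, against 38.1, 28.9 and 36.5 CPM in the WT libraries, with a difference of 0.07 on the log2 scale (edgeR adjusted p = 0.750), which turned to -0.05 without WT replicate 2. None of the 10 small-subunit proteins classed as specific to mitochondria was called, and their median was 0.04.

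**Figure D4:**
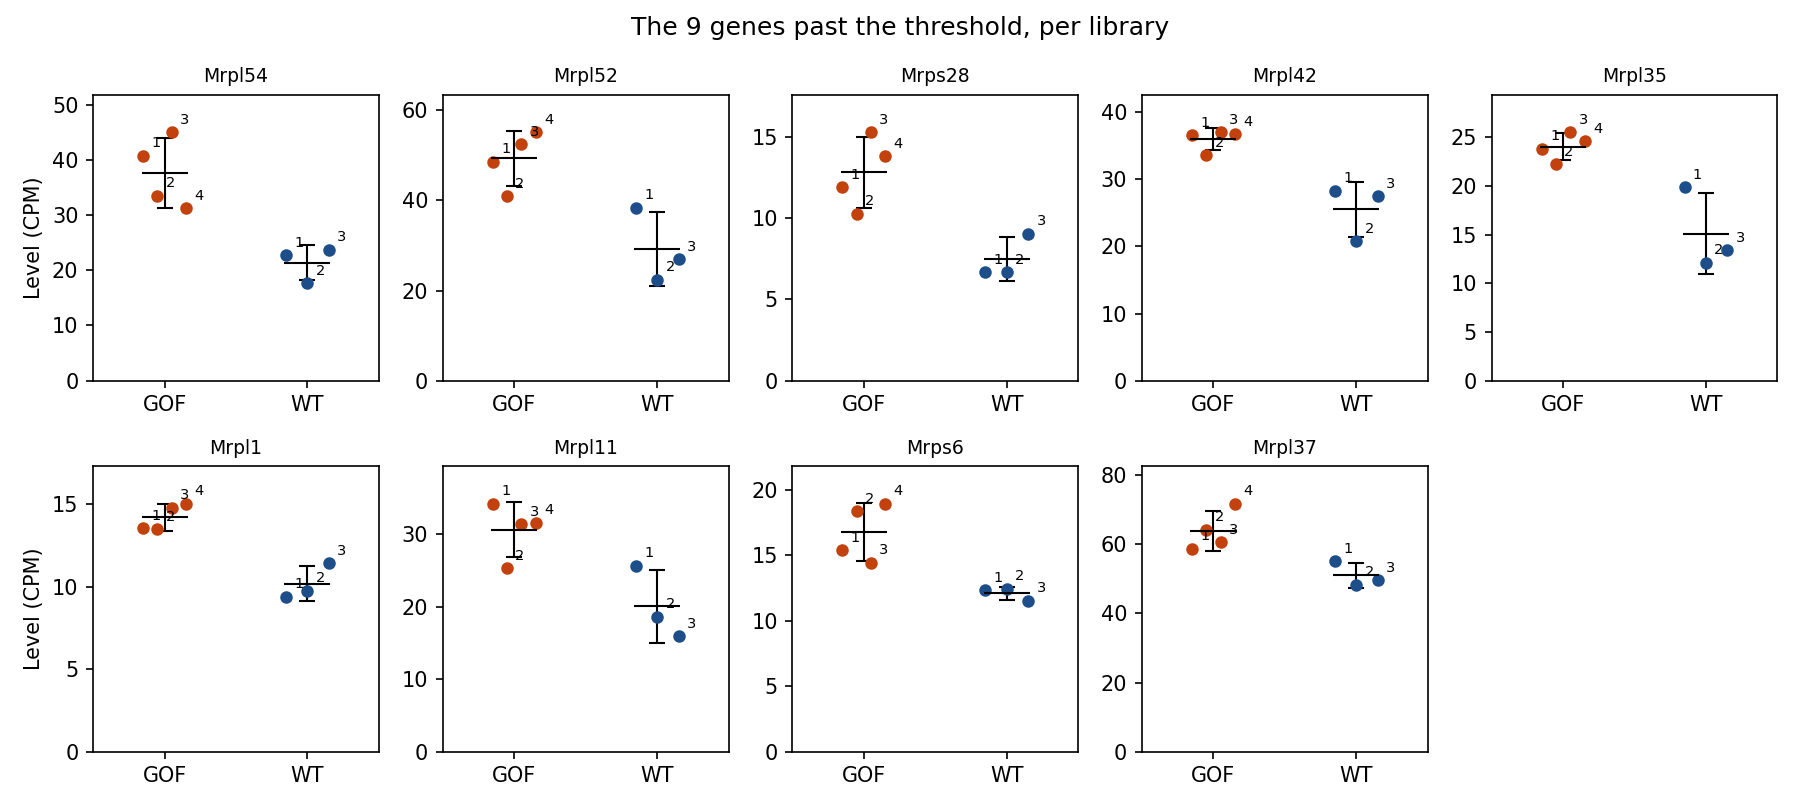
CPM of the 9 called genes in each mouse, GOF left of WT, with points for mice and bars for the mean and SD. In 8 of the 9 genes every GOF library lies above every WT library, and in Mrpl11 GOF replicate 2 (25.3 CPM) lies under WT replicate 1 (25.6 CPM).

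The gene names do not always give the position in the ribosome. The paralogs Mrps18a, Mrps18b and Mrps18c descend from one bacterial protein, and Mrps18a has moved to the large subunit. The usual nomenclature gives the bacterial name to Mrps18c only, so Mrps18a and Mrps18b are counted here among the mitochondria-specific proteins. Mrps18a had 37.3, 35.8, 41.7 and 40.8 CPM in the GOF libraries, against 35.6, 27.6 and 30.1 CPM in the WT libraries (log2 fold change 0.32 ± 0.12 (SE), edgeR adjusted p = 0.0697), and it passed the test when WT replicate 1 was left out (adjusted p = 0.0321). Mrps18b had 21.5, 18.3, 25.1 and 19.4 CPM in the GOF libraries, against 28.7, 21.4 and 27.1 CPM in the WT libraries (log2 fold change -0.29 ± 0.16 (SE), edgeR adjusted p = 0.195). Mrps18c gave -0.07 on the log2 scale (edgeR adjusted p = 0.770), whose sign turned under upper-quartile scaling, on the FPKM scale and without WT replicate 1 (0.13). No call was thus made for any of the 3, and their fold changes were not tested against each other. Mrps36, which is a subunit of the oxoglutarate dehydrogenase complex of the citric acid cycle in spite of its name, had 4.43, 3.83, 4.75 and 5.02 CPM in the GOF libraries, against 4.02, 3.58 and 1.74 CPM in the WT libraries (log2 fold change 0.53 ± 0.31 (SE), edgeR adjusted p = 0.228). It is counted among the 77 by the naming rule.

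The promoter windows of RefSeq (GRCm38.p6, from 250 bases before to 50 after the start) covered 68 of the 77 genes, and 4 short motifs known from promoters of mitochondrial genes or of growth genes were searched on both strands. CCGGAAG, the core bound by ETS factors, occurred in 24 windows (35.3%), against 9.12% of all 27025 windows and 19.3% of the 9143 windows of genes tested. ATGGCGG, the core bound by Yy1, occurred in 13 (19.1%), against 4.19% of all windows and 8.84% of those of genes tested. GCATGCG, the core bound by Nrf1, occurred in 8 (11.8%), against 3.64% and 6.89%. CACGTG, the E-box bound by Myc and its relatives, occurred in 5 (7.35%), against 7.24% and 10.3%. The core GCATGCG overlaps its own reverse complement within CGCATGCG, and windows were counted rather than matches. Of the 7 called genes with a window, 1 held the ETS core, 2 the Yy1 core, 1 the E-box and none the Nrf1 core. The shares describe letters and not binding, and they were not tested.

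The 250 bases before the start are printed for 4 genes, 5′ to 3′ on the gene's strand, with the motif in capitals. Mrpl52 is shown as the called gene with the ETS core (chr14:54426659-54426908, plus strand, the core read on the other strand, from position -47 relative to the start). Mrpl37 is the called gene with the E-box (chr4:107066867-107067116, minus strand, position -162). Mrpl32 (chr13:14613038-14613287, minus strand) has the most matches to the Nrf1 core of the 68 windows, in 3 stretches from -86, -65 and -23, and starts 75 bases from Psma2, a proteasome subunit gene. Mrps18b (chr17:35916441-35916690, minus strand) holds the same core at -224 and, beyond the printed bases, at 29 after the start, and it lies 45 bases from the start of Ppp1r10. Also beyond the printed bases are the ETS core in Mrpl52 (at 3) and Mrps18b (at 44) and the Yy1 core in Mrpl37 (at 30).
Mrpl52: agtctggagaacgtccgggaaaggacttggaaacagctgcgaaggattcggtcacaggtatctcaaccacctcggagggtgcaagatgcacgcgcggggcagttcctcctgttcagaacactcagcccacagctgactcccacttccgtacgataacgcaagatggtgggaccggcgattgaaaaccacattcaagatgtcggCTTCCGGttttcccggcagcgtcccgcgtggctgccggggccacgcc
Mrpl37: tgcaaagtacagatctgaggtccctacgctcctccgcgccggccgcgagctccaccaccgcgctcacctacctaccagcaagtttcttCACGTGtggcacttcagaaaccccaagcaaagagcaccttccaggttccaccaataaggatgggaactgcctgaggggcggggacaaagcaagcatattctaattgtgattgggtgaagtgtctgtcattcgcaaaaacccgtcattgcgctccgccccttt
Mrpl32: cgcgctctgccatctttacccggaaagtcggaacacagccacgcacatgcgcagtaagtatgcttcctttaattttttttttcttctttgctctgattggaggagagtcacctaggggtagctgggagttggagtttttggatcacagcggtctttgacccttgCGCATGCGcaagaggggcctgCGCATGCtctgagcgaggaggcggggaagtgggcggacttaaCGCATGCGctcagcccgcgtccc
Mrps18b: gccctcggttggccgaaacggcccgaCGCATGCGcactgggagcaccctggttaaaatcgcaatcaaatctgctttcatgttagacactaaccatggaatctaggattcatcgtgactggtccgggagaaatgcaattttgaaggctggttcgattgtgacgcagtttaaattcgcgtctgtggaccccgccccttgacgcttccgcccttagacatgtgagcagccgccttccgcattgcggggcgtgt
Mrpl52 and Mrpl37 rose in GOF cells (log2 fold changes 0.75 and 0.32), while Mrpl32 at 0.29 and Mrps18b at -0.29 were not called.

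In mean log2(CPM) over the 77 genes, the GOF and WT libraries overlapped. WT replicate 2 was the lowest of the 7 libraries in 42 of them (54.5%), against 17.2% of all genes tested, and the highest in none. WT replicate 1 was the highest in 28 and GOF replicate 3 in 26. Of the 77 genes 69 had a higher CPM in WT replicate 1 than in WT replicate 2, against 48.0% of all genes tested. The mean log2(CPM) over the 77 genes was 4.83, 4.69, 4.92 and 4.89 in the GOF libraries, against 4.89, 4.51 and 4.71 in the WT libraries. The means of the genotypes differed by 0.13, beside a pooled SD within the genotypes of 0.14. That SD is the spread of single libraries and not the error of the difference, which was not tested. The 2 extreme WT libraries differed by 0.38, a gap between single libraries that is not a like measure to a difference of means. Every GOF library lay above every WT library in 14 of the 77 genes (18.2%), against 21.5% of all genes tested, and below in 1, against 18.2% of all genes tested.

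**Figure D5:**
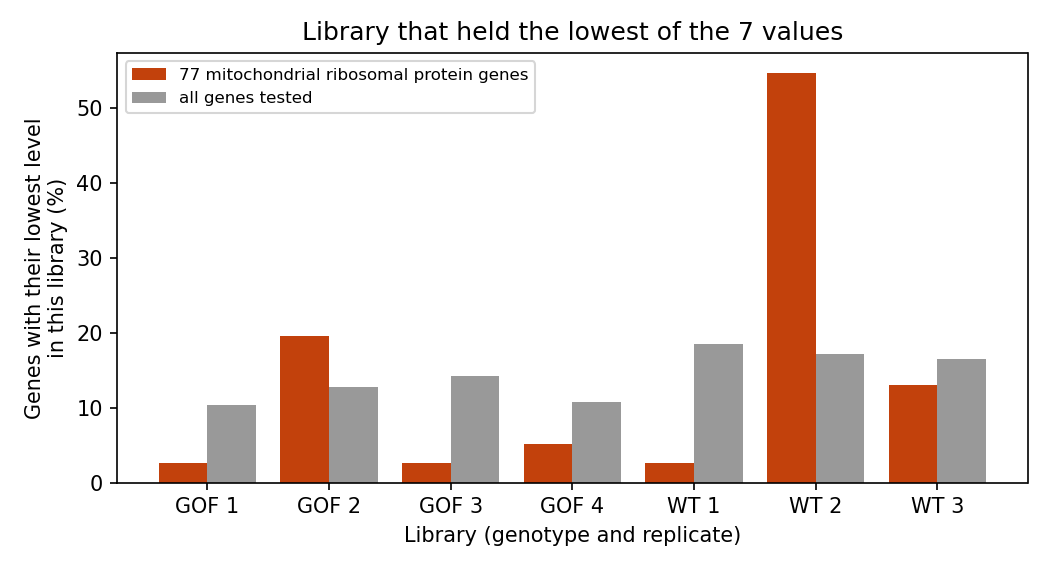
Percent of genes for which each library has the lowest CPM of the 7, for the 77 mitochondrial ribosomal protein genes and for all genes tested, GOF libraries left of WT libraries. WT replicate 2 is the lowest in 54.5% of the 77 genes and in 17.2% of all genes tested.

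The count of called genes moved with the libraries included. Without WT replicate 2 the calls were 3, namely Mrpl42, Mrpl52 and Mrpl54, beside 16% of all genes tested called higher. Without WT replicate 1 the calls were 14 (18.2%, beside 15.3% of all genes tested) and without WT replicate 3 they were 4 (5.19%, beside 12.8%). Leaving out GOF replicate 1 gave 5 calls (6.49%, beside 13% of all genes tested) and leaving out GOF replicate 2 gave 8 (10.4%, beside 15.9%). Leaving out GOF replicate 3 gave 5 calls (6.49%, beside 13.3%) and leaving out GOF replicate 4 gave 3 (3.9%, beside 14%). The share of the 77 was thus above the background without WT replicate 1 and below it without any other library. Without GOF replicates 1 and 3, the pair with the most transcript of other cell types, Mrps6 was the 1 gene called, beside 8.53% of all genes tested. Mrpl54 then stood at 0.59 on the log2 scale (edgeR adjusted p = 0.0671) and Mrpl52 at 0.71 (edgeR adjusted p = 0.101). Without GOF replicates 2 and 4 the calls were Mrpl52, Mrpl54 and Mrps28, beside 13.6% of all genes tested. None of these choices gave a call for a lower gene.

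The other genes of mitochondrial translation were called in both directions, as were all genes tested (16.8% higher and 14.5% lower). Among the 5 mitochondrial ribosomal proteins whose symbols do not start with Mrp, none rose and Ptcd3, a small-subunit protein near the mRNA entry, fell (log2 fold change -0.43 ± 0.11 (SE), edgeR adjusted p = 0.0136; adjusted p = 0.0571 without WT replicate 3). Of 28 genes for assembly of the ribosome and modification of its rRNA 1 rose (3.57%) and 2 fell (7.14%), with a median of 0.08. Fastkd2, which binds the rRNA of the large subunit, had 22.9, 24.9, 22.2 and 22.5 CPM in the GOF libraries, against 16.7, 10.7 and 12.9 CPM in the WT libraries. It rose (log2 fold change 0.78 ± 0.16 (SE), edgeR adjusted p = 0.00673). Rbfa, a maturation factor of the small subunit, fell (log2 fold change -0.51 ± 0.13 (SE), edgeR adjusted p = 0.0175; adjusted p = 0.0504 without WT replicate 1), as did Ngrn, an rRNA-binding factor of the large subunit (log2 fold change -0.32 ± 0.09 (SE), edgeR adjusted p = 0.0239; adjusted p = 0.0567 to 0.0685 without GOF replicate 1 or 3 or WT replicate 3). Of 17 translation factors 1 rose (5.88%) and 2 fell (11.8%), with a median of 0.18. The elongation factor Gfm1 had 39.6, 39.1, 38.7 and 39.5 CPM in the GOF libraries, against 23.6, 30.2 and 25.3 CPM in the WT libraries. It rose (log2 fold change 0.57 ± 0.11 (SE), edgeR adjusted p = 0.00481). The initiation factor Mtif3 fell (log2 fold change -0.46 ± 0.12 (SE), edgeR adjusted p = 0.0196; adjusted p = 0.0577 without WT replicate 1). Pdf, the deformylase that removes the formyl group from the first methionine, also fell (log2 fold change -1.14 ± 0.32 (SE), edgeR adjusted p = 0.0255). Pdf lost its call without GOF replicate 3 or 4 or WT replicate 1 or 3 (adjusted p = 0.0562 to 0.0903).

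The enzymes that charge mitochondrial tRNAs had 5 of 20 genes called higher (25.0%) and 3 lower (15%), beside 16.8% and 14.5% of all genes tested, with a median of 0.07. Tars2, which charges the threonine tRNA, had 82.1, 89.9, 70.0 and 78.3 CPM in the GOF libraries, against 192, 228 and 165 CPM in the WT libraries. It fell (log2 fold change -1.28 ± 0.13 (SE), edgeR adjusted p = 0.000122). Sars2, for the serine tRNA, had 29.6, 24.1, 27.1 and 33.0 CPM in the GOF libraries, against 15.9, 13.2 and 18.2 CPM in the WT libraries. It rose (log2 fold change 0.85 ± 0.16 (SE), edgeR adjusted p = 0.00411). Gatb and Qrsl1, which encode subunits of the amidotransferase that makes the glutamine tRNA, both rose. Gatb had 10.4, 10.6, 10.3 and 11.0 CPM in the GOF libraries, against 6.83, 4.41 and 5.29 CPM in the WT libraries (log2 fold change 0.94 ± 0.19 (SE), edgeR adjusted p = 0.00555). For Qrsl1 the values were 15.9, 22.3, 21.2 and 19.7 CPM in the GOF libraries, against 10.8, 9.92 and 12.4 CPM in the WT libraries (log2 fold change 0.84 ± 0.16 (SE), edgeR adjusted p = 0.00467). In Tars2, Sars2, Gatb and Qrsl1 the groups did not overlap, and the calls held without any single library. Gatc, which encodes another subunit of the amidotransferase, was not called (log2 fold change -0.11, edgeR adjusted p = 0.684), and its groups overlapped. Of 16 genes for mitochondrial transcription and RNA processing 1 rose (6.25%) and 3 fell (18.8%), with a median of -0.04. Pnpt1, an exoribonuclease, rose (log2 fold change 0.43 ± 0.12 (SE), edgeR adjusted p = 0.0268). Hsd17b10, a subunit of the mitochondrial RNase P (log2 fold change -0.55 ± 0.14 (SE), edgeR adjusted p = 0.0193), the initiation factor Tfb2m (log2 fold change -0.47 ± 0.15 (SE), edgeR adjusted p = 0.0403) and the elongation factor Tefm (log2 fold change -0.66 ± 0.22 (SE), edgeR adjusted p = 0.0490) fell. Each of these 4 lost its call without some single libraries, with adjusted p up to 0.0883 for Pnpt1, 0.0753 for Hsd17b10, 0.144 for Tfb2m and 0.142 for Tefm. For Pnpt1 these were GOF replicates 2 and 4 and WT replicates 1 and 3, for Hsd17b10 GOF replicates 3 and 4 and WT replicate 3, for Tfb2m every library but WT replicate 2, and for Tefm every library but GOF replicate 3.

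Among 9 tested regulators of mitochondrial biogenesis 1 rose (11.1%) and 2 fell (22.2%), with a median of -0.14. Over all genes tested 16.8% were called higher and 14.5% lower. Myc, a transcription factor that drives growth and ribosome production, had 84.7, 79.5, 80.2 and 101 CPM in the GOF libraries, against 254, 173 and 239 CPM in the WT libraries. The groups were far apart, and Myc fell (log2 fold change -1.36 ± 0.14 (SE), edgeR adjusted p = 0.000178), also without any single library. Esrra, an orphan nuclear receptor that acts on genes of the respiratory chain, rose (log2 fold change 0.56 ± 0.12 (SE), edgeR adjusted p = 0.00639). Yy1, a zinc-finger factor that binds promoters of many mitochondrial genes, fell (log2 fold change -0.34 ± 0.09 (SE), edgeR adjusted p = 0.0230), although not without GOF replicate 1, 3 or 4 or WT replicate 3 (adjusted p = 0.0540 to 0.0883). Set beside the 77, the cytosolic ribosomal proteins had 3 of 84 tested genes called higher (3.57%) and 14 lower (16.7%), with a median of -0.14. The nuclear subunits of oxidative phosphorylation had 13 of 87 called higher (14.9%) and 3 lower (3.45%), with a median of 0.12. The mitochondrially encoded genes had 7 of 13 called higher (53.8%) and none lower, with a median of 0.37. These lists differ from the 77 genes in level and length, and the differences between lists were not tested.

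Many genes of the mitochondrial ribosome lie head to head with another protein-coding gene. In 33 of the 77 (42.9%) the start of such a gene on the other strand lay within 1000 bases or overlapped, against 1958 of 11407 tested protein-coding genes (17.2%) in GENCODE M21. Partners with a mitochondrial role included Sars2 (172 bases from Mrps12), Ndufs6 (at Mrpl36), Ndufb5 (at Mrpl47), Twnk (at Mrpl43) and Ptcd2 (81 bases from Mrps27), and Mrpl46 and Mrps11 share their start region with each other. Of the 30 partners tested 4 were called higher in GOF cells (13.3%) and 6 lower (20%), near the 16.8% and 14.5% of all genes tested. Mrpl54 and Apba3, an adaptor protein gene, start 26 bases apart and went opposite ways. Apba3 had 29.6, 31.7, 38.9 and 33.2 CPM in the GOF libraries, against 51.5, 53.9 and 49.8 CPM in the WT libraries (log2 fold change -0.63 ± 0.11 (SE), edgeR adjusted p = 0.00311), and these groups did not overlap. Mrps12 gave 0.02 on the log2 scale (edgeR adjusted p = 0.932), beside the rise of its partner Sars2. Pnpla7, whose start is 935 bases from that of Mrpl41, had 90.3, 92.0, 95.0 and 92.5 CPM in the GOF libraries, against 163, 171 and 169.8 CPM in the WT libraries. It fell (log2 fold change -0.86 ± 0.07 (SE), edgeR adjusted p = 4.39e-05). Mrpl41 itself gave 0.06 on the log2 scale (edgeR adjusted p = 0.751). Loci of 35 of the 77 genes overlap another locus of the table. The sources used here do not say whether reads were counted by strand, so counts in overlapping stretches cannot be told apart.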

How the data were processed

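Per the labels, paired-end TruSeq RNA libraries of naive splenic CD4 T cells were sequenced on an Illumina HiSeq instrument. The authors deposited raw counts and FPKM per gene and library for 34745 genes. Per the submitters' processing notes the build is mm10 and the tools include HISAT2 2.0.4, Cufflinks 2.1.1 and Cuffdiff. Their roles, the counting rule and the strand handling were not given in the sources used here. FPKM as deposited equals the count divided by a length per gene and by the column total, within 0.1%, for 100% of values. Coordinates are those of the deposited table.

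Counts were tested with edgeR 4.0.16 (R 4.3.3; quasi-likelihood, filterByExpr, TMM, 7 libraries, 2 groups) with Benjamini-Hochberg adjustment over 12668 genes and a threshold of 0.05. SEs come from the fold change and the F statistic. Every adjusted p of the text is from this test unless another tool is named. The p-values rest on the spread between mice, and counting error is smallest for genes with many counts. The model was checked on simulated data. No pair of libraries of 1 group agreed within sampling noise. Alternatives used DESeq2 1.42.0, limma 3.58.1, other scalings and filters, a replicate block, and leaving out libraries.

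Genes named are Pik3cd, called members, the 5 of highest FPKM, the Mrps18 paralogs, the stalk proteins, Mrps36, and up to 4 called genes of each companion list with the smallest p. Mrpl13, Mrpl19, Mrpl41, Mrps12, Gatc, overlapping genes, head-to-head partners and the genes with printed promoters were chosen after their values were seen. The members and lists were chosen with earlier results of these data known.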

Additional observations from a re-analysis of the deposited data

Results flagged for a closer look

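Of 97 gene and group combinations of 4 libraries examined, 5 had a library set apart from the others of its group by a gap above Dixon's 95% critical value, which chance gives in about 5% of groups. GOF replicate 2 was apart from the other GOF libraries on the low side for Mrpl42 (33.5 CPM) and Mrpl20 (29.6 CPM), which encode large-subunit proteins. It was also apart on the low side for the assembly factor Rbfa (64.3 CPM) and on the high side for the transcription factor Yy1 (131 CPM). GOF replicate 3 was apart from the others on the high side for Mrpl41 (37.2 CPM), a large-subunit protein. The WT group of 3 was not examined in this way.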

How the results depend on the processing

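Over 39 named genes and 693 values under alternatives, 544 kept their direction and their side of the threshold, 127 lost the call, 8 gained one and 14 changed sign. Of the 77 genes 17 were called higher with limma on log2(FPKM + 1) and 17 on log2(FPKM + 0.1), 3 to 14 when 1 library was left out, and, in 2 alternatives chosen after seeing the data, 1 without GOF replicates 1 and 3 and 3 without GOF replicates 2 and 4. Over all 12668 genes tested 2606 and 2672 were called higher on these 2 FPKM scales. Quantile normalization gave 1 lower call, Mrpl53, beside 1913 lower calls over all genes tested. The 6 companion lists of mitochondrial translation and biogenesis held 22 calls in either direction. Over all genes tested 2130 were called higher and 1838 lower. With a replicate block the lists held 13, beside 1677 higher and 1519 lower over all genes. When 1 library was left out they held 14 to 22, beside 1615 to 2091 higher and 1374 to 1819 lower. Without GOF replicates 1 and 3 they held 11, beside 1074 higher and 1050 lower. Without GOF replicates 2 and 4 they held 13, beside 1764 higher and 1358 lower. Mrps16 changed sign without WT replicate 2 and without GOF replicates 1 and 3 (-0.06), with -0.0492 to 0.15 over single libraries left out. Mrps18c did so with upper-quartile scaling (0.0024), on the FPKM scales (0.0176 and 0.0206), without GOF replicates 2 and 4 (0.0382) and over single libraries left out (-0.19 to 0.13). Mrpl10 (-0.10 to 0.17 over single libraries left out, -0.12 without GOF replicates 1 and 3) and Mrpl12 (-0.11 to 0.17 and -0.0467) changed sign too. The cause was not tested. Mrpl54 kept its call in 17 of 18 alternatives, Mrpl52 and Mrps28 in 16 of 18, Mrpl42 in 15 of 18, Mrpl35 in 11 of 17, Mrpl11 in 11 of 18, Mrpl1 in 8 of 17 and Mrps6 and Mrpl37 in 8 of 18. With the replicate block 7 of the 77 genes were called higher (9.09%), beside 1677 of the 12668 genes tested. Same-numbered GOF and WT libraries had correlations of 0.03, 0.09 and -0.07 in their deviations from the group means. WT replicate 2 correlated best with GOF replicate 2, but WT replicate 1 did so with GOF replicate 3 and WT replicate 3 with GOF replicate 4. With so few libraries these deviations cannot show whether same-numbered libraries shared a factor such as a batch. Genes at a few CPM, such as Mrpl53 and Mrps36, had wide intervals.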
